A study of Mus musculus with 24 samples.

Results

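The 10 genes described here carry or convert pyruvate and lactate, and their transcripts were followed through 4 treatment groups. They are the transporters Slc16a1 and Slc16a3 and their chaperone Bsg, the lactate dehydrogenase subunits Ldha and Ldhb, the mitochondrial pyruvate carrier genes Mpc1 and Mpc2, and Pdha1, Pdhb and Pdk1 of the pyruvate dehydrogenase system. They were taken by name, as 10 of the 55401 genes in the RNA table, and all 10 were among the 14749 genes with enough counts to be tested. CD8 T cells of C57BL/6J mice, purified with magnetic beads from spleens and lymph nodes, were activated in culture for 3 days with anti-CD28 and IL-2. From day 2 to day 3 they received 20 mM sodium pyruvate, 20 mM sodium lactate together with Oxyrase, 20 mM sodium lactate, or 20 mM sodium chloride (NaCl). Oxyrase is a bacterial membrane preparation whose enzymes use up dissolved oxygen; its dose is not given in the sources used here, and it was given only with lactate, so that it is read against lactate alone. Each group had 3 RNA-seq and 3 ATAC-seq libraries, 24 in all; ATAC-seq counts the DNA that a transposase can reach and so measures open chromatin. The labels do not tell if a group is 3 mice, 3 cultures or repeats of 1 culture, so p-values measure the spread between these libraries, which may be technical.

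Lactate and pyruvate cross the cell membrane on monocarboxylate transporters, of which MCT1 (Slc16a1) and MCT4 (Slc16a3) need the membrane glycoprotein basigin (Bsg) to reach the surface. In the cytosol lactate dehydrogenase, a tetramer of LDHA and LDHB subunits, interconverts the 2 acids, lactate being pyruvate with its keto group reduced to a hydroxyl group. Pyruvate enters mitochondria through a heterodimer of MPC1 and MPC2 and is oxidised by pyruvate dehydrogenase, whose E1 subunits are encoded by Pdha1 and Pdhb and which the kinase PDK1 switches off. Activated T cells are known for making much lactate from glucose even in oxygen, and Ldha, Pdk1 and Slc16a3 are textbook targets of the hypoxia-inducible factors (HIF), which bind the core letters ACGTG and GCGTG.

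The promoters of Ldha, Slc16a1, Pdk1 and Slc16a3 are shown because the first 3 are the genes whose transcripts fell with Oxyrase and the fourth is the one that rose with pyruvate. The sequences are those of RefSeq on GRCm38.p6 (the mm10 assembly), 250 bases before to 50 bases after an annotated start, all on the plus strand. Capitals mark each ACGTG or GCGTG on either strand, which read CACGT and CACGC where they lie on the other strand.
Ldha, chr7:46845554-46845853: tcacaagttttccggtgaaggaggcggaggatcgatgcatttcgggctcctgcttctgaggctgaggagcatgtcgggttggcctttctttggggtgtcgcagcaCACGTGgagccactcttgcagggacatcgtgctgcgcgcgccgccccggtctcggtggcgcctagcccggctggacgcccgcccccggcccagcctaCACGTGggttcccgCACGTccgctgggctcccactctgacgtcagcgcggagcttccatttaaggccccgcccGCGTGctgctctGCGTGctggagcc
Slc16a1, chr3:104638414-104638713: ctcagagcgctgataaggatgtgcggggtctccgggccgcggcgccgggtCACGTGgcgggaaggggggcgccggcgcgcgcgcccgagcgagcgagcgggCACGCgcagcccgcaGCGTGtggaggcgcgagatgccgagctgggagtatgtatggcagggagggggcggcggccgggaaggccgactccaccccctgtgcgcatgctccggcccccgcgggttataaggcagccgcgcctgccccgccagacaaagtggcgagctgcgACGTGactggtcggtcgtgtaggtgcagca
Pdk1, chr2:71872974-71873273: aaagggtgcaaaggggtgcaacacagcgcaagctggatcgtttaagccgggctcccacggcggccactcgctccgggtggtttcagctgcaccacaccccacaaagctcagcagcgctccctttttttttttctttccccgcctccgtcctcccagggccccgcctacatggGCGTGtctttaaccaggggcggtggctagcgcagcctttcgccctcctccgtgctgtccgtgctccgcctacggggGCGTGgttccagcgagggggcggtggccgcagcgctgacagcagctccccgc
Slc16a3, chr11:120948817-120949116: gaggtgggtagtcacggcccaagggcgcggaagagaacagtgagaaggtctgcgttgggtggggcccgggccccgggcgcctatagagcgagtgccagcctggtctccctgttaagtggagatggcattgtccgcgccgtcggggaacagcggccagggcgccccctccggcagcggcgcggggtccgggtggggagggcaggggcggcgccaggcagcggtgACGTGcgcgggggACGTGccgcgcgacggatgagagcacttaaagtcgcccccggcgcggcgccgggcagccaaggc
The Ldha window held 5 matches to ACGTG and 2 to GCGTG, the Slc16a1 window 3 and 2, the Pdk1 window 0 and 2, and the Slc16a3 window 2 and 0. A palindromic CACGTG, the E-box core, contains ACGTG on both strands and was counted so; Ldha held 2 of these and Slc16a1 held 1. Of 32851 promoters of the same length, 19.6% held ACGTG, 32.4% GCGTG, 43.8% either and 7.15% CACGTG. Promoters were found for 9 of the 10 genes, all but Bsg, in 12 entries, of which 10 held at least 1 of the ACGTG or GCGTG letters. A further pattern, TGACNNNGC (GCNNNGTCA on the other strand), stood in 12.4% of all promoters and in 3 entries, those of Slc16a1, Pdhb and the second start of Mpc1. Of the 12 windows, 11 overlapped an ATAC peak. A match describes these letters only and does not show binding.

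RNA libraries held 26036288 to 39643683 counts and ATAC libraries 25308254 to 37074367. Levels are given as CPM, the read counts brought to a common library size with TMM factors, and changes as log2 fold changes with their SE; a gene or peak was called at an adjusted p under 0.05 in edgeR's quasi-likelihood test, adjusted by Benjamini and Hochberg over all features tested. CPM takes no account of transcript length, so levels are compared between groups and not between genes. The CD8 label stood with its markers, whose CPM, unlike the other levels, were taken per library total without TMM factors. The summed level of 7 CD8 T markers was 2143 to 2216 CPM with pyruvate, 1635 to 1720 CPM with lactate and Oxyrase, 2422 to 2492 CPM with lactate and 2523 to 2539.5 CPM with NaCl. Cd4 stayed under 0.63 CPM and the 2 NK markers under 0.16 CPM. The 5 myeloid markers summed to 2.73 to 3.72, 4.10 to 6.00, 1.61 to 1.87 and 1.38 to 1.68 CPM in the same order of groups; Lyz2 was at 0 in all lactate and Oxyrase libraries and Adgre1 in all pyruvate and all lactate libraries. The part of these shifts in the results below was not tested. In bulk libraries fewer cells of a type and less RNA per cell cannot be told apart.

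Pyruvate raised 1 of the 10 transcripts and lowered 1 against NaCl, where 15.7% of all genes tested were called. Lactate alone moved none past the test, where 7.73% of all genes were called. Lactate with Oxyrase moved 7 against lactate, where 49.7% of all genes were called, and 6 against NaCl, where 50.8% were. Pyruvate against lactate moved 2, where 24% of all genes were called. The libraries of the groups did not overlap, in either direction, in 33.8% of all genes for pyruvate against NaCl, 27.4% for lactate against NaCl, 57.1% for lactate and Oxyrase against NaCl, 55.9% for lactate and Oxyrase against lactate and 39.6% for pyruvate against lactate, so a lack of overlap at a single gene is common. With Oxyrase the genes parted: Pdha1, Bsg and Ldhb were higher and Slc16a1, Ldha and Pdk1 lower in both comparisons, and Pdhb was higher against lactate. All shifts were small, the largest being 1.31-fold up (Slc16a3 with pyruvate) and, on the log2 scale, -0.34 (Pdk1, lactate with Oxyrase against lactate).

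**Figure D1:**
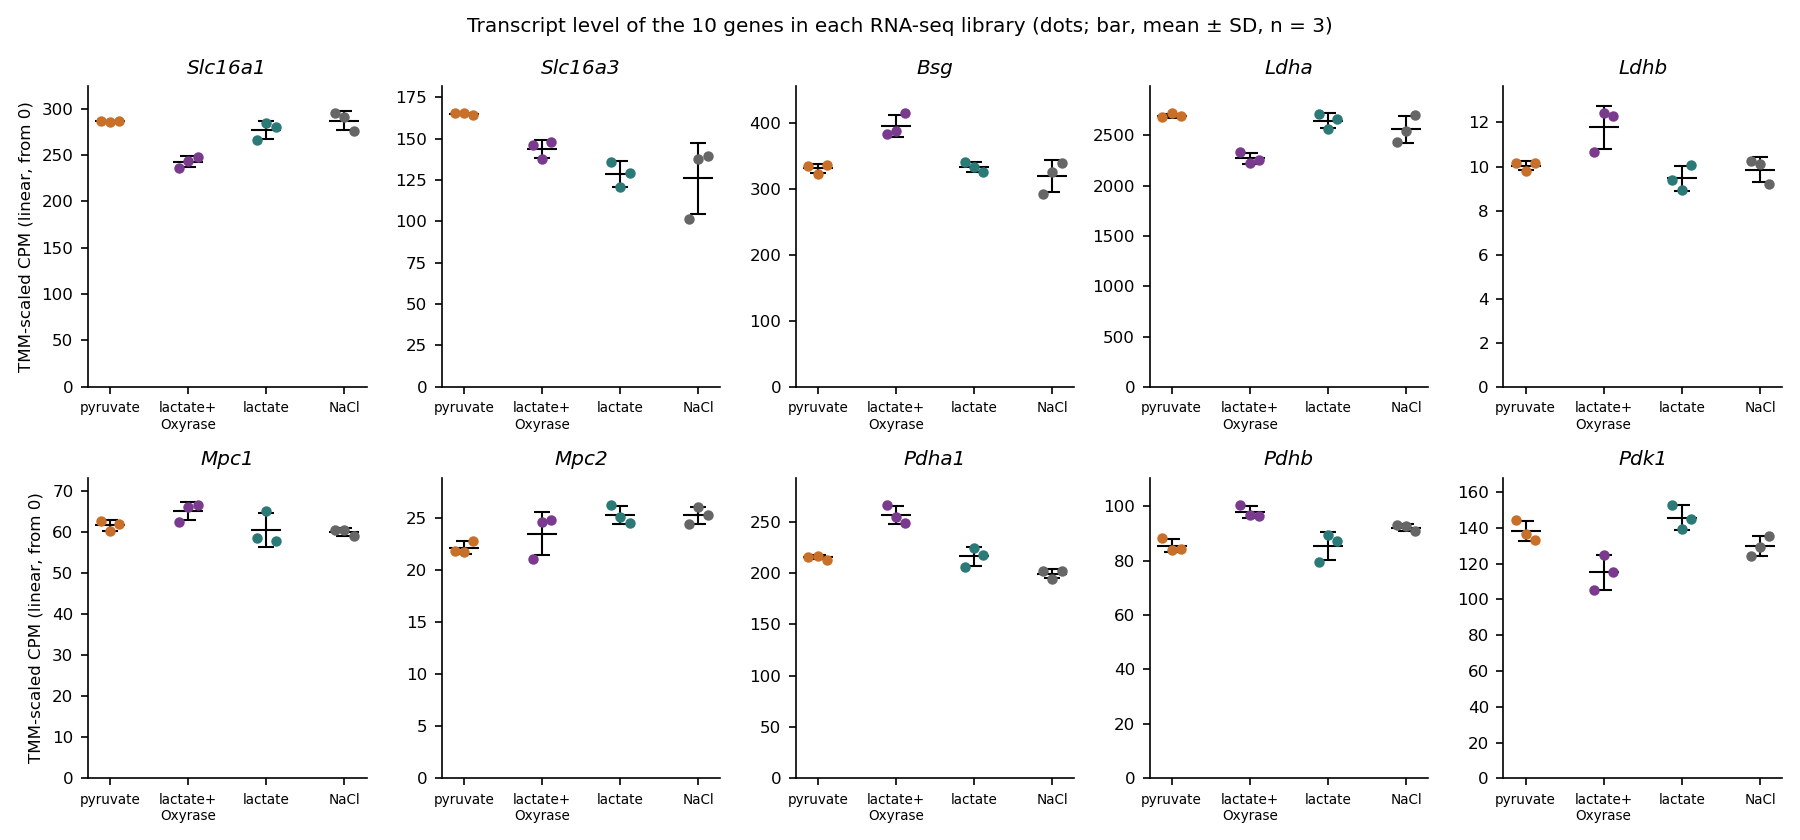
Transcript level of each of the 10 genes (TMM-scaled CPM, linear axis from 0) in the 3 libraries of the pyruvate, lactate and Oxyrase, lactate and NaCl groups; dots are libraries and bars the mean ± SD. Slc16a3 is highest with pyruvate (164 to 165 CPM), while Pdha1 and Bsg are highest and Slc16a1 and Ldha lowest in the lactate and Oxyrase libraries.

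Pyruvate was compared with NaCl, which gives the same sodium without the acid. Over all genes 9.4% were called higher and 6.28% lower. The median log2 fold change of the 10 was 0.05 against 0.00 over all genes, and the median absolute change 0.08 against 0.12. Slc16a3, which encodes the transporter that exports lactate from glycolytic cells, stood at 165, 165 and 164 CPM with pyruvate and at 101, 138 and 139.5 CPM with NaCl. Every pyruvate library was above every NaCl library, and NaCl 1 lay well under the other NaCl libraries. The log2 fold change was 0.39 ± 0.08, or 1.31-fold (95% interval 1.16 to 1.48; adjusted p = 0.0039 in edgeR). Without NaCl 1 it was 0.25 and still called (adjusted p = 0.0024 in edgeR), so the size of the change depended on that library. NaCl 1 was also the lowest of the NaCl group for 18 of 25 listed HIF targets, where it was the lowest for 34.5% of all genes tested.

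Mpc2, the partner of Mpc1 in the mitochondrial carrier, was the gene that fell: it stood at 21.9, 21.7 and 22.8 CPM with pyruvate and at 24.4, 26.1 and 25.3 CPM with NaCl. The groups did not overlap, and the log2 fold change was -0.19 ± 0.06 (adjusted p = 0.045 in edgeR). The call was lost when any 1 of the 6 libraries was left out, with adjusted p of 0.0554 to 0.155, so it stands at the edge of the threshold. The other 8 genes had log2 fold changes of -0.11 to 0.11, and their 95% intervals ran from -0.20 to 0.21. Among them Pdha1 was nearest to a call, at 216, 217 and 213 CPM with pyruvate and 202, 194 and 201 CPM with NaCl (0.11 ± 0.04, adjusted p = 0.055 in edgeR). It was called by DESeq2 (adjusted p = 0.043), which called 3 of the 10 and 2312 of all genes tested. It was also called by edgeR with only the 2 groups in the model (adjusted p = 0.039). Slc16a1 differed by -0.01 ± 0.04 and Ldha by 0.08 ± 0.04.

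For lactate against NaCl, which shares the NaCl libraries with the preceding comparison, 3.61% of all genes were called higher and 4.12% lower. None of the 10 genes was called by edgeR and 2 were by DESeq2, which called 1333 of all genes tested. The changes of the 10 ran from -0.11 to 0.17 and their 95% intervals from -0.24 to 0.28, or 0.848-fold to 1.22-fold. At an unadjusted p under 0.05, 3 passed, Pdha1, Pdhb and Pdk1, where 3472 of all 14749 genes tested did. Pdk1 stood at 153, 139 and 145 CPM with lactate and at 124, 129 and 136 CPM with NaCl, without overlap (0.17 ± 0.05, adjusted p = 0.069 in edgeR). DESeq2 put its adjusted p at 0.034. Pdha1 (0.12 ± 0.04, adjusted p = 0.066 in edgeR and 0.039 in DESeq2) lay on the other side of the threshold by tool in the same way, so these 2 genes are neither called nor shown to be level. The transporters and both lactate dehydrogenase genes had overlapping libraries with lactate and NaCl.

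**Figure D2:**
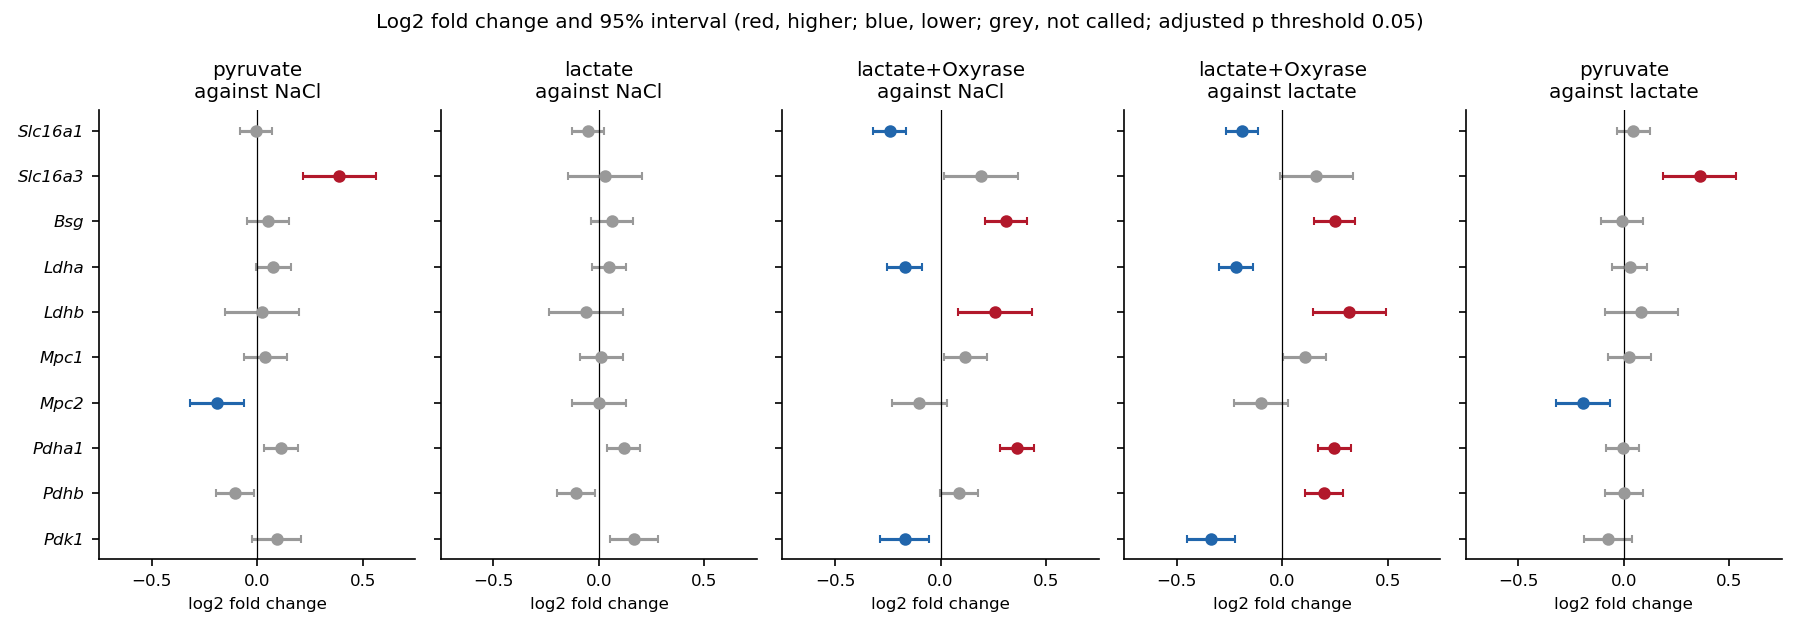
Log2 fold change of each gene with its 95% interval in the 5 comparisons, first-named group over second; red is higher, blue lower and grey not called at an adjusted p of 0.05. The plot has 3 genes in red and 3 in blue for lactate and Oxyrase against NaCl, and all 10 are grey for lactate against NaCl.

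Pyruvate and lactate, which differ by the keto or hydroxyl group on the middle carbon, were compared directly at the same 20 mM and the same time. The 2 genes called were again Slc16a3 and Mpc2; the comparison shares the pyruvate libraries with that against NaCl. Over all genes 13% were called higher and 10.9% lower. Slc16a3 stood at 165, 165 and 164 CPM with pyruvate and at 136, 121 and 129.6 CPM with lactate (log2 fold change 0.36 ± 0.08, adjusted p = 0.0041 in edgeR). The groups were apart, and the log2 fold change compares the pyruvate and lactate libraries only. Its SE and adjusted p came from the fit of all 12 libraries, so the spread of the NaCl libraries enters them. Mpc2 stood at 21.9, 21.7 and 22.8 CPM with pyruvate and at 26.3, 25.1 and 24.6 CPM with lactate (-0.19 ± 0.06, adjusted p = 0.030 in edgeR). Its call was lost without lactate 1, lactate 2, pyruvate 1 or pyruvate 2, with adjusted p of 0.0608 to 0.111. For the other 8 genes the difference lay between -0.08 and 0.08, and the 95% intervals between -0.19 and 0.26. These are the outermost bounds of the 8 genes, and the interval of each gene was narrower. For Ldha, the enzyme that uses both acids, the interval of the difference was -0.05 to 0.11, and for Slc16a1, which carries both, -0.03 to 0.12.

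Lactate with Oxyrase was compared with lactate for the effect of Oxyrase and with NaCl for that of both together. Over all genes 26.1% were called higher and 23.6% lower against lactate, and 26.5% higher and 24.3% lower against NaCl. Of the 10 genes 4 were higher and 3 lower against lactate, and 3 and 3 against NaCl, shares that lie near this background. The median absolute log2 change of the 10 was 0.21 against 0.24 over all genes in the comparison with lactate, and 0.18 against 0.25 in that with NaCl. The genes differed from each other in direction, and are given by role.

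The libraries of lactate and Oxyrase are called Oxyrase 1 to 3 where 1 of them is named. Of the membrane transport genes, Slc16a1 was lower, Bsg higher and Slc16a3 not called. Slc16a1 stood at 236, 244 and 248 CPM in the lactate and Oxyrase libraries, 266, 285 and 281 CPM in the lactate libraries and 295, 291 and 276 CPM in the NaCl libraries. The lactate and Oxyrase libraries were under all others, with log2 fold changes of -0.19 ± 0.04 against lactate (adjusted p = 3.1e-04 in edgeR) and -0.24 ± 0.04 against NaCl (adjusted p = 2.9e-05 in edgeR). Bsg stood at 384, 389 and 415 CPM with lactate and Oxyrase, 341, 334 and 325 CPM with lactate, and 293, 326 and 339.7 CPM with NaCl. Its lactate and Oxyrase libraries were above all others (0.25 ± 0.05 against lactate, adjusted p = 2.9e-04, and 0.31 ± 0.05 against NaCl, adjusted p = 3.2e-05 in edgeR). The chaperone and the transporter it serves thus moved in opposite directions at the transcript level. Emb, which encodes embigin, a relative of basigin that can also escort these transporters, was lower: 121, 127 and 124 CPM with lactate and Oxyrase, 194, 195 and 192 CPM with lactate, and 181, 185 and 193 CPM with NaCl. Its log2 fold change was -0.65 ± 0.04 against lactate (adjusted p = 1.4e-10) and -0.59 ± 0.04 against NaCl (adjusted p = 4.6e-10 in edgeR), larger in size than that of any of the 10 genes.

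Slc16a3 stood at 146, 138 and 148 CPM with lactate and Oxyrase, above the 136, 121 and 129.6 CPM of the lactate libraries but among those of NaCl. The changes of 0.16 ± 0.08 against lactate (adjusted p = 0.11) and 0.19 ± 0.08 against NaCl (adjusted p = 0.063 in edgeR) missed the threshold. The first was called without the filter on low counts (adjusted p = 0.0028) or in a fit of the 2 groups alone (adjusted p = 0.011 in edgeR). The fit without the filter took in 26345 genes in place of 14749. Its lowest adjusted p in edgeR was 0 in both comparisons, so its p-values are not relied on. The second was called without the filter too (adjusted p = 2.0e-04 in edgeR) and depended on single NaCl libraries, being called without NaCl 2 (adjusted p = 0.027) or NaCl 3 (adjusted p = 0.018 in edgeR), while without NaCl 1 the log2 fold change was 0.05 (adjusted p = 0.38 in edgeR). In the order of its levels pyruvate came first, apart from lactate with Oxyrase, which was apart from lactate; lactate and NaCl overlapped.

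The subunits of lactate dehydrogenase moved apart. Ldha, whose product favours making lactate, stood at 2334, 2226 and 2258 CPM with lactate and Oxyrase, 2708, 2562 and 2662 CPM with lactate, and 2428, 2544 and 2702 CPM with NaCl. The lactate and Oxyrase libraries were the lowest of all, with -0.22 ± 0.04 against lactate (adjusted p = 1.6e-04) and -0.17 ± 0.04 against NaCl (adjusted p = 0.0014 in edgeR). Ldha has processed copies elsewhere in the mouse genome, and how the authors' estimated counts were divided among near-identical copies was not checked here. Ldhb, whose product favours the reverse reaction, stood at 10.7, 12.4 and 12.3 CPM with lactate and Oxyrase, 9.39, 8.92 and 10.1 CPM with lactate, and 10.2, 10.1 and 9.22 CPM with NaCl. Its increase was 0.32 ± 0.08 against lactate (adjusted p = 0.0038) and 0.26 ± 0.08 against NaCl (adjusted p = 0.016 in edgeR). The call against NaCl was lost without NaCl 3, Oxyrase 2 or Oxyrase 3, with adjusted p of 0.0643 to 0.0661.

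In the mitochondrial carrier neither gene was called with Oxyrase. Mpc1 differed by 0.11 ± 0.05 against lactate (adjusted p = 0.076) and 0.12 ± 0.05 against NaCl (adjusted p = 0.051 in edgeR), and its 3 lactate and Oxyrase libraries (62.6, 66.1 and 66.7 CPM) lay above the NaCl ones (60.6, 60.5 and 59.0 CPM) but among those of lactate (58.5, 65.3 and 57.8 CPM). The call depended on single libraries, with an adjusted p of 0.0068 against lactate without lactate 2 of 0.048 against lactate without Oxyrase 1, and of 0.033 against NaCl without Oxyrase 1; with only the 2 groups in the model the adjusted p against NaCl was 0.047. Mpc2 differed by -0.10 ± 0.06 in both comparisons (adjusted p = 0.19 in edgeR), with overlapping libraries of 21.1, 24.6 and 24.8 CPM.

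At pyruvate dehydrogenase the subunits were higher and the kinase Pdk1 lower. Pdha1, for the catalytic alpha subunit that PDK1 phosphorylates, stood at 266, 254 and 249 CPM with lactate and Oxyrase, 206, 224 and 218 CPM with lactate, and 202, 194 and 201 CPM with NaCl. The lactate and Oxyrase libraries stood above all others, with 0.25 ± 0.04 against lactate (adjusted p = 3.3e-05) and 0.36 ± 0.04 against NaCl (adjusted p = 4.0e-07 in edgeR). Pdhb, for the beta subunit, stood at 100.5, 96.9 and 96.6 CPM with lactate and Oxyrase, 79.5, 89.3 and 87.0 CPM with lactate, and 92.9, 92.8 and 90.7 CPM with NaCl. It was higher against lactate (0.20 ± 0.04, adjusted p = 8.6e-04 in edgeR); against NaCl its change of 0.09 ± 0.04 was not called (adjusted p = 0.095 in edgeR), although the libraries did not overlap.

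Pdk1 stood at 105, 125 and 116 CPM with lactate and Oxyrase, 153, 139 and 145 CPM with lactate, and 124, 129 and 136 CPM with NaCl. Against lactate the groups were apart and the change was -0.34 ± 0.05 (adjusted p = 6.5e-05 in edgeR). Against NaCl they overlapped, and the change of -0.17 ± 0.06 (adjusted p = 0.016 in edgeR) lost its call without Oxyrase 1 (-0.11, adjusted p = 0.098) or NaCl 3 (-0.14, adjusted p = 0.072). The lactate libraries held the highest Pdk1 mean of the 4 groups, 146 ± 6.84 CPM (SD, n = 3).

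**Figure D3:**
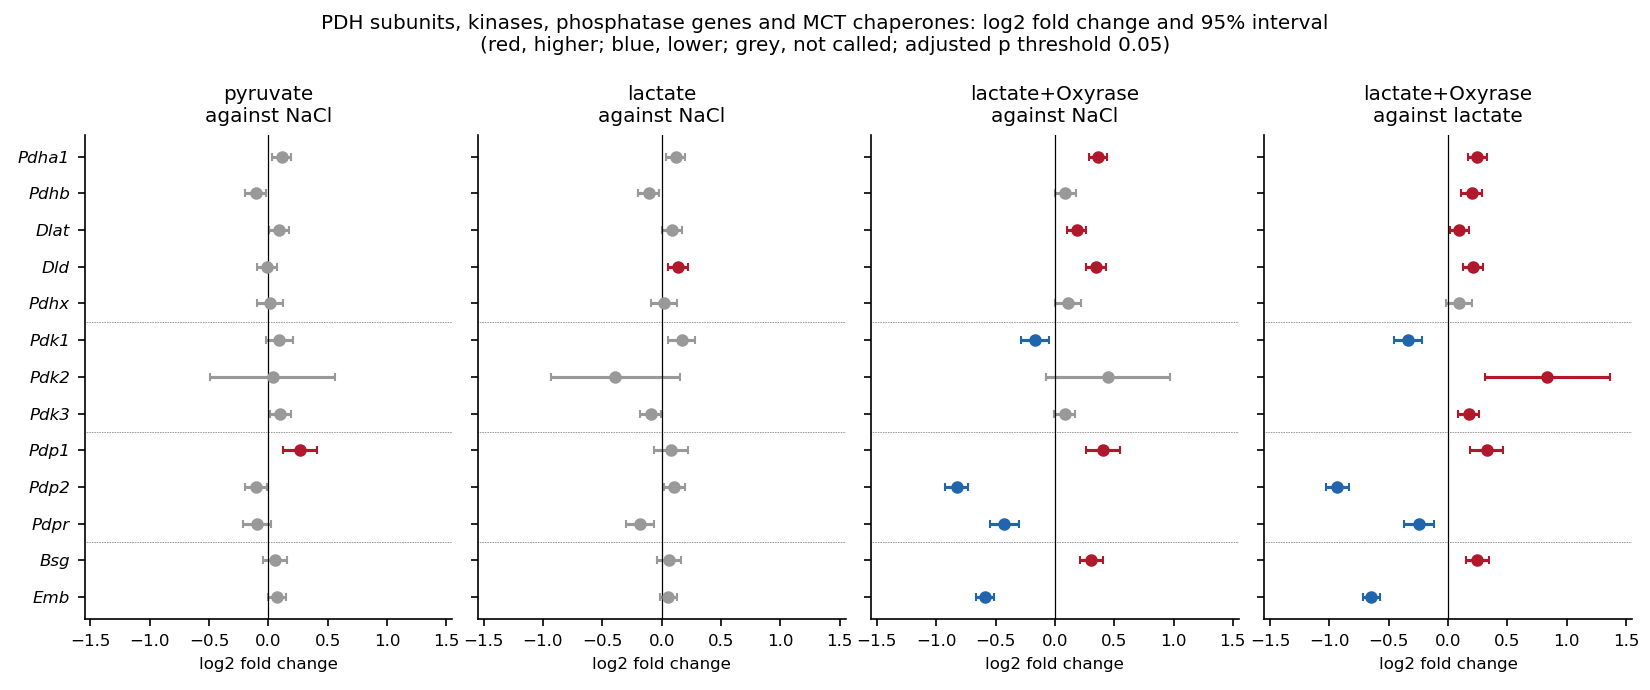
Log2 fold change with 95% interval of the pyruvate dehydrogenase subunits, kinases, phosphatase genes and the 2 transporter chaperones in 4 comparisons, first-named group over second; red is higher, blue lower and grey not called. In the 2 comparisons with Oxyrase, Pdk1, Pdp2, Pdpr and Emb lie to the left of 0 and Pdha1, Pdp1 and Bsg to the right.

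The other regulators of the complex did not share 1 direction. Of the kinases, Pdk3 was higher with Oxyrase against lactate (0.17 ± 0.04, adjusted p = 0.0024) but differed by 0.08 from NaCl, and Pdk2, at 1.04 to 2.97 CPM, was higher against lactate (0.84 ± 0.25, adjusted p = 0.010 in edgeR) with wide intervals. Pdk4 was too low to be tested. The phosphatases undo the kinases' work: Pdp2 stood at 26.3, 25.8 and 24.97 CPM with lactate and Oxyrase, 50.7, 49.0 and 47.5 CPM with lactate, and 44.9, 45.5 and 46.1 CPM with NaCl. Its lactate and Oxyrase libraries lay far under the rest, at -0.93 ± 0.05 against lactate (adjusted p = 3.5e-11) and -0.83 ± 0.05 against NaCl (adjusted p = 1.7e-10 in edgeR). Pdp1, the other catalytic phosphatase, was higher (0.32 ± 0.07 against lactate, adjusted p = 5.7e-04; 0.40 ± 0.07 against NaCl, adjusted p = 7.7e-05 in edgeR), and Pdpr, the regulatory subunit, was lower (-0.24 ± 0.06 and -0.43 ± 0.06 in the same order). Of the remaining subunits, which were added after their values were seen, Dlat and Dld were higher in both comparisons (0.10 and 0.21 against lactate, 0.18 and 0.35 against NaCl) and Pdhx was not called.

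Pyruvate raised Pdp1 as well (0.26 ± 0.07 against NaCl, adjusted p = 0.013 in edgeR), at 15.5, 14.5 and 14.6 CPM with pyruvate and 12.6, 12.6 and 11.8 CPM with NaCl. Against lactate, pyruvate raised Pdk3 (0.19 ± 0.04, adjusted p = 0.0031) and lowered Pdp2 (-0.22 ± 0.04, adjusted p = 0.0017 in edgeR).

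A ratio of 2 transcripts within a library does not depend on the scaling of that library. The Ldha to Ldhb ratio was lower in all 3 lactate and Oxyrase libraries than in any other, its log2 mean differing by -0.53 against lactate and -0.43 against NaCl. Pdk1 to Pdha1 differed by -0.59 and -0.54 in the same order, and Ldha to Pdha1 by -0.47 and -0.53, again with no overlap. Slc16a3 to Slc16a1 was higher both with pyruvate (0.41 against NaCl, 0.31 against lactate) and with lactate and Oxyrase (0.45 against NaCl, 0.35 against lactate). Without NaCl 1 the differences from NaCl were 0.24 with pyruvate and 0.28 with lactate and Oxyrase. With pyruvate the gene called was Slc16a3; with lactate and Oxyrase Slc16a1 was called lower, while Slc16a3 differed by 0.16 against lactate and 0.19 against NaCl without being called. Mpc1 to Mpc2 was higher by 0.22 to 0.23 in the same 4 comparisons. Between lactate and NaCl all 5 ratios overlapped. The ratios were chosen with results of these data known, so they are given as values without a test.

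**Figure D4:**
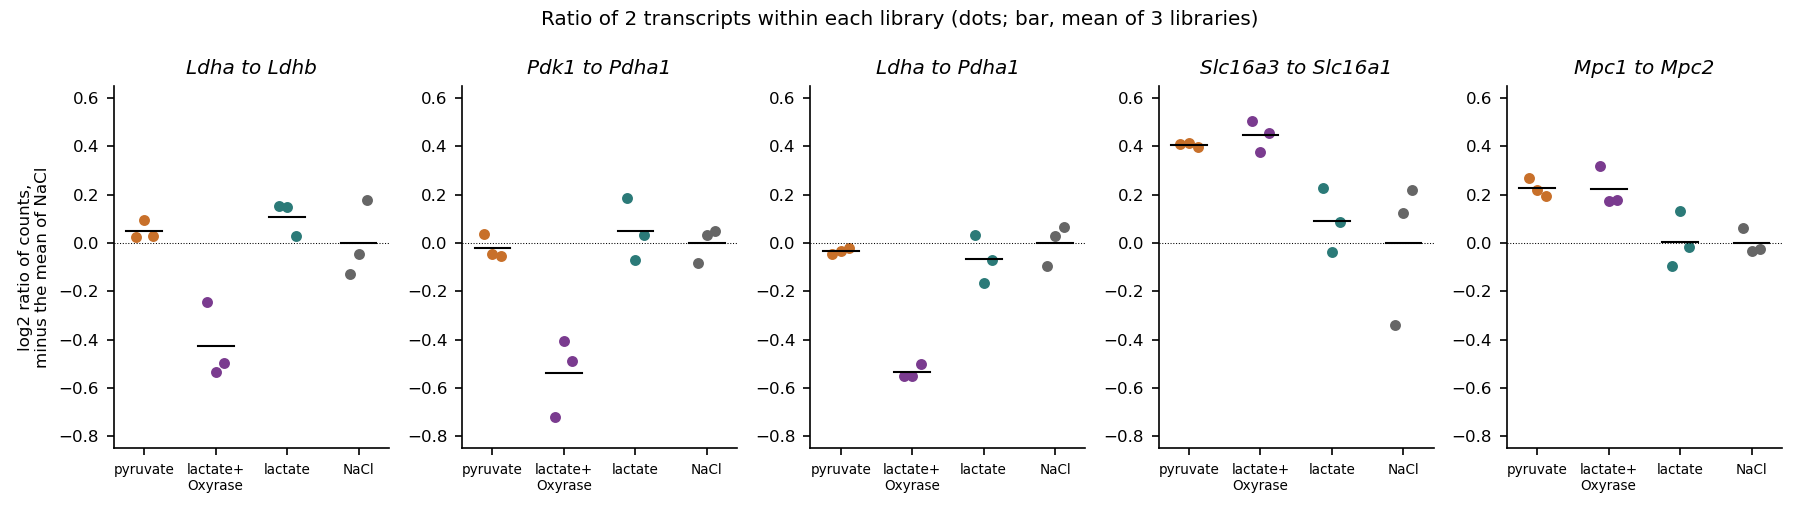
Log2 ratio of 2 transcripts in each library, minus the mean of the NaCl libraries (y axis), for 5 pairs of genes; dots are libraries and bars the mean of 3. The lactate and Oxyrase dots lie under all others in the first 3 panels, and the pyruvate and the lactate and Oxyrase dots lie above the lactate and NaCl dots in the last 2.

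A wider list held 35 other genes around pyruvate and lactate, of which 23 could be tested. Some carry, make, use or sense the 2 acids or regulate enzymes that do. Others, Got1 and Pck2 among them, act on nearby metabolites such as oxaloacetate, malate and citrate and not on the acids themselves. The median log2 fold change of the 23 was 0.00 for pyruvate against NaCl, 0.06 for lactate against NaCl, 0.10 and 0.08 for lactate and Oxyrase against lactate and NaCl, and -0.01 for pyruvate against lactate, beside 0.00 over all genes in each. Pyruvate against NaCl, where 15.7% of all genes were called, raised 3 and lowered 1: Pcx, which carboxylates pyruvate to oxaloacetate (0.40 ± 0.07, adjusted p = 0.0013), Pkm, which makes pyruvate (0.30 ± 0.04, adjusted p = 6.3e-05), and Pdp1 were higher, and the aspartate aminotransferase Got1 lower (-0.22 ± 0.03, adjusted p = 2.5e-04 in edgeR). Lactate against NaCl, where 7.73% of all genes were called, raised 3 and lowered 0: Pck2, the mitochondrial phosphoenolpyruvate carboxykinase (0.41 ± 0.11, adjusted p = 0.029), Got1 (0.18 ± 0.03, adjusted p = 0.0037) and Dld (0.13 ± 0.04, adjusted p = 0.049 in edgeR). That count of 3 was 1 without lactate 1, NaCl 1 or NaCl 2. The 2 acids thus stood on opposite sides of NaCl for Got1. Tested directly, pyruvate against lactate raised 3 and lowered 7 of the 23, where 24% of all genes were called, with the largest changes in Pck2 (-0.59 ± 0.11, adjusted p = 7.7e-04), Gpt2 (-0.52 ± 0.13, adjusted p = 0.0068), Pcx (0.48 ± 0.07, adjusted p = 1.6e-04) and Got1 (-0.40 ± 0.03, adjusted p = 2.3e-07 in edgeR).

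Lactate with Oxyrase raised 10 and lowered 7 of the 23 against lactate, where 49.7% of all genes were called. It raised 9 and lowered 7 against NaCl, where 50.8% were. Pck2 stood at 239, 159 and 172 CPM with lactate and Oxyrase, 91.7, 77.7 and 86.6 CPM with lactate, and 61.4, 64.8 and 66.4 CPM with NaCl. Oxyrase 1 was the highest, and the groups were apart from each other (1.15 ± 0.10 against lactate, adjusted p = 7.2e-08; 1.56 ± 0.11 against NaCl, adjusted p = 2.1e-09 in edgeR). Gpt2, the mitochondrial alanine aminotransferase that interconverts pyruvate and alanine, ran close to it at 136, 87.4 and 97.1 CPM with lactate and Oxyrase against 51.8, 42.0 and 49.1 CPM with lactate (1.16 ± 0.12, adjusted p = 4.5e-07 in edgeR); against NaCl it differed by 1.56 ± 0.13. The malic enzyme gene Me1, which also yields pyruvate, had the largest fitted change (3.28 ± 0.58 against lactate, adjusted p = 1.6e-04 in edgeR) but at 0.91 to 1.62 CPM with lactate and Oxyrase and 0 to 0.178 CPM with lactate, where 3 counts correspond to 0.0759 to 0.116 CPM, so its size is not well fixed.

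Genes of the HIF response were counted beside the 10 genes, since low oxygen is the known trigger of that response. Of 25 listed targets, none of them among the 10 genes, 14 were higher and 2 lower with lactate and Oxyrase against lactate, where 26.1% of all genes were higher and 23.6% lower. Against NaCl 16 were higher and 2 lower, where 26.5% of all genes were higher and 24.3% lower. Their median log2 fold change was 0.35 and 0.25 in the same order, beside 0.00 over all genes. P4ha2, a collagen prolyl hydroxylase, stood at 38.6, 28.3 and 31.5 CPM with lactate and Oxyrase and at 6.27, 6.25 and 5.86 CPM with lactate (2.42 ± 0.19, adjusted p = 1.0e-08), Adm, the vasodilator adrenomedullin, differed by 2.59 ± 0.24 (adjusted p = 8.6e-08) and Vegfa by 1.12 ± 0.09 (adjusted p = 9.2e-09 in edgeR). The list did not rise throughout: against lactate 20 of the 25 changes were above 0 and 5 below, and 9 targets were not called. Hk2 averaged 215 CPM with lactate and Oxyrase and 234 CPM with lactate, and Car12 averaged 25.9 and 35.3 CPM. In the same libraries Ldha and Pdk1 were lower. Slc16a3 was not called, at 0.16 against lactate and 0.19 against NaCl. For Slc16a3 the lactate and Oxyrase libraries lay above all lactate libraries and overlapped those of NaCl. A fit of lactate and Oxyrase and lactate alone did call it higher. Pyruvate raised 9 of the 25 and lowered 0 against NaCl, where 9.4% of all genes were higher and 6.28% lower, and raised 13 and lowered 0 against lactate, where 13% were higher and 10.9% lower. Lactate raised 1 and lowered 3 against NaCl, where 3.61% of all genes were higher and 4.12% lower. Without NaCl 1 pyruvate raised 8 against NaCl, and without pyruvate 2 it raised 5; lactate against NaCl raised 0 to 1 and lowered 1 to 3 with 1 library left out. The comparisons with pyruvate are also those in which Slc16a3 was higher.

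The chromatin at the 10 genes was read from 31 ATAC peaks that lay within 10 kb of the annotated genes, 11 of them at a start; for Bsg, whose strand was not in the annotation table, both ends were taken, and its lower-coordinate end is the one meant unless stated. Coordinates are those of the deposited peaks on mm10. Peaks at starts moved as a class in these data, so calls are also given with a second scaling that removes the trend on mean accessibility. Of 13553 peaks within 1 kb of any annotated start, 22.2% were lower with lactate and Oxyrase against lactate, 45.5% were lower against NaCl, 17.5% were lower with lactate against NaCl, and 20.7% were higher with pyruvate against lactate.

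With lactate and Oxyrase, 5 of the 11 start peaks were lower and 0 higher against lactate, and 6 lower and 0 higher against NaCl; over all peaks 28.4% were called against lactate, 15.6% higher and 12.8% lower, and 40.7% against NaCl, 21.5% higher and 19.2% lower. With the trend removed the 11 start peaks split otherwise, with 2 higher and 2 lower against lactate and 4 higher and 5 lower against NaCl. Over all peaks that scaling called 15.3% higher and 14.2% lower against lactate, and 20.7% higher and 20.1% lower against NaCl. The Slc16a1 start (chr3:104638029-104639572) stood at 44.5, 46.4 and 47.4 CPM with lactate and Oxyrase, 62.5, 55.3 and 58.4 CPM with lactate, and 70.5, 76.1 and 59.3 CPM with NaCl. It was the lowest in the lactate and Oxyrase libraries, by -0.35 against lactate (adjusted p = 0.0040 in edgeR) and -0.57 against NaCl, and stayed called after the trend was removed (-0.24 and -0.31). The Bsg start (chr10:79704105-79704885) was lower too, at 37.2, 40.7 and 37.6 CPM with lactate and Oxyrase and 49.8, 45.7 and 46.4 CPM with lactate (-0.30, adjusted p = 0.012 in edgeR; -0.20 after the trend was removed, and not called without Oxyrase 1, adjusted p = 0.052), although the Bsg transcript was higher. The Slc16a3 start (chr11:120948436-120949290), at 16.8, 15.8 and 17.3 CPM with lactate and Oxyrase, 20.1, 20.9 and 19.2 CPM with lactate and 23.0, 26.7 and 23.5 CPM with NaCl, was lower against both. Its changes were -0.27 against lactate (adjusted p = 0.024, or 0.053 after the trend was removed) and -0.55 against NaCl, called under both scalings in edgeR. The call against lactate was lost without lactate 2 (adjusted p = 0.096) or Oxyrase 2 (adjusted p = 0.091 in edgeR).

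The Ldha start (chr7:46845271-46847402) stood at 61.0, 59.8 and 64.4 CPM with lactate and Oxyrase, 73.8, 71.6 and 75.1 CPM with lactate, and 81.3, 77.6 and 71.1 CPM with NaCl. The lactate and Oxyrase libraries were under all others, while those of lactate and NaCl overlapped. The change was -0.25 against lactate (adjusted p = 0.028) and -0.31 against NaCl (adjusted p = 0.0039 in edgeR). Neither call outlasted removal of the trend (-0.14, adjusted p = 0.088, and -0.03, adjusted p = 0.74 in edgeR). The call against lactate was also lost without lactate 2, lactate 3, Oxyrase 1 or Oxyrase 2, with adjusted p of 0.0519 to 0.0920 in edgeR. The Pdk1 start (chr2:71872843-71874239) was at 47.3, 47.8 and 46.9 CPM with lactate and Oxyrase against 60.7, 55.1 and 51.7 CPM with lactate (-0.24, adjusted p = 0.045 in edgeR; -0.13, adjusted p = 0.10, after the trend was removed), and that call was lost without any 1 of the 6 libraries but lactate 3, with adjusted p of 0.0794 to 0.158. Against NaCl it was lower under both scalings (-0.47 and -0.22), as was the Mpc1 start (chr17:8282835-8284459; -0.49 and -0.23). At Pdha1, whose transcript was higher, the start (chrX:160137679-160138906) differed by 0.02 from NaCl with 1 factor per library and by 0.26 after the trend was removed (adjusted p = 0.0015 in edgeR). The Ldhb start (chr6:142507346-142508364) differed by 0.14 against lactate and 0.19 against NaCl, neither called, and was higher in both after the trend was removed (0.24 and 0.42). Those of Pdhb and Mpc2 (chr14:8172702-8173919 and chr1:165459566-165461724) were not called with 1 factor. With the trend removed Pdhb was higher against lactate and NaCl (0.21 and 0.25) and Mpc2 against NaCl (0.29). The upper Bsg end (chr10:79712139-79712802) was not called in any comparison under either scaling.

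**Figure D5:**
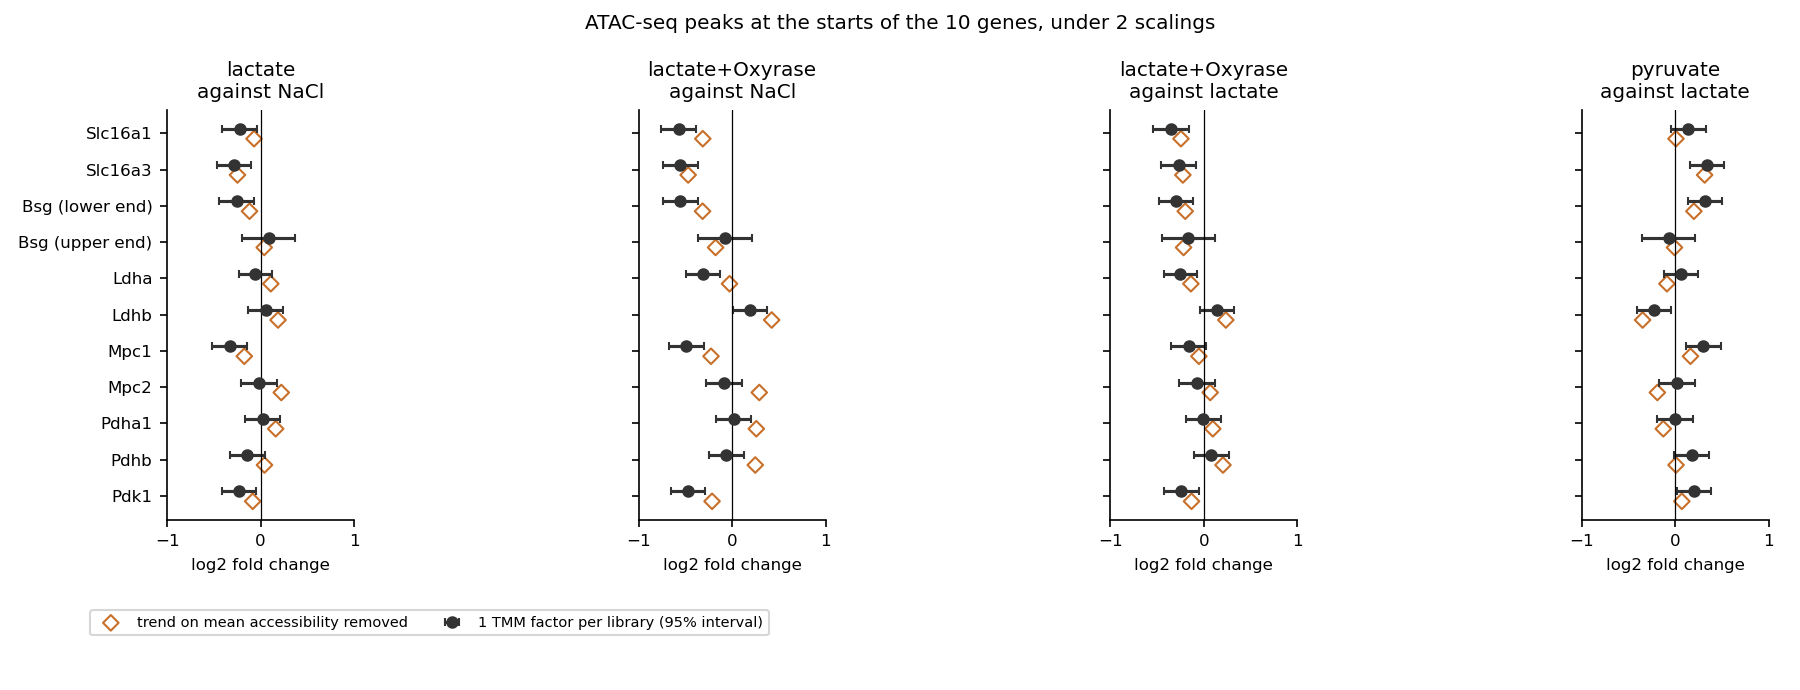
Log2 fold change of the ATAC peaks at the starts of the 10 genes in 4 comparisons, first-named group over second; filled dots with 95% intervals use 1 TMM factor per library, open diamonds have the trend on mean accessibility removed. The diamonds of Slc16a1 and Slc16a3 stay to the left of 0 for lactate and Oxyrase against NaCl, while that of Ldha lies near 0.

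Pyruvate against NaCl called 0 of the 31 peaks and 0% of all peaks by edgeR, and DESeq2 called 0 as well. At an unadjusted p under 0.05, 1 of the 31 peaks and 4060 of all 75802 passed. Pyruvate against lactate called 4 of the 31 higher and 0 lower, where 11.6% of all peaks were called, 6.84% higher and 4.78% lower. With the trend removed it called 3 of the 31 higher and 2 lower, the starts of Ldhb and Mpc2. Over all peaks 6.95% were higher and 5.95% lower with that scaling. The Slc16a3 start stood at 23.7, 26.6 and 25.6 CPM with pyruvate and 20.1, 20.9 and 19.2 CPM with lactate, with the groups apart (0.34, adjusted p = 0.010 in edgeR; 0.31, adjusted p = 0.012, after the trend was removed). The call was lost without lactate 3 (adjusted p = 0.078) or pyruvate 2 (adjusted p = 0.071 in edgeR). A second peak inside Slc16a3 (chr11:120950676-120951280) was higher as well, at 28.3 ± 1.90 CPM with pyruvate and 21.3 ± 1.24 CPM with lactate (SD, n = 3 each; 0.41 ± 0.09, adjusted p = 0.0020 in edgeR; 0.37 after the trend was removed). Against NaCl the start and this second peak differed with pyruvate by 0.05 and 0.17 and were not called. The Slc16a3 transcript, in contrast, was called higher with pyruvate against NaCl as well as against lactate. With pyruvate against lactate the starts of Bsg (0.32, adjusted p = 0.017) and Mpc1 (0.30, adjusted p = 0.028 in edgeR) were higher. That of Bsg was higher also with the trend removed (0.20, adjusted p = 0.031 in edgeR) and that of Mpc1 only with 1 factor per library. The Bsg call was lost without lactate 2, lactate 3 or pyruvate 1, with adjusted p of 0.0860 to 0.0892. The Mpc1 call was lost without lactate 2, lactate 3, pyruvate 1 or pyruvate 2, with adjusted p of 0.103 to 0.139 in edgeR. The Ldhb start differed by -0.23 (adjusted p = 0.095) and was lower after the trend was removed (-0.35, adjusted p = 3.9e-04 in edgeR).

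Lactate against NaCl called 2 of the 31 peaks, where 6.41% of all peaks were called, 1.13% higher and 5.28% lower: the starts of Mpc1 (-0.33, adjusted p = 0.022) and Slc16a3 (-0.29, adjusted p = 0.047 in edgeR) were lower, and neither was called after the trend was removed, when the Mpc2 start was called higher (0.22). The Mpc1 call was also lost without lactate 2, lactate 3, NaCl 1 or NaCl 2, with adjusted p of 0.122 to 0.221, and the Slc16a3 call without any 1 of the 6 libraries but NaCl 3, with adjusted p of 0.0817 to 0.332 in edgeR. Over all peaks, 17.6% of the calls in this comparison were higher with 1 factor per library and 35.4% after the trend was removed.

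Away from the starts, 11 of 20 peaks were called with lactate and Oxyrase against NaCl, 6 higher and 5 lower, where 40.7% of all peaks were called. Against lactate 7 were called, 3 higher and 4 lower, where 28.4% of all peaks were, so that share lies near the background. With the trend removed the counts were 6 higher and 5 lower against NaCl and 3 higher and 6 lower against lactate. Over all peaks 20.7% were then higher and 20.1% lower against NaCl, and 15.3% higher and 14.2% lower against lactate. The peaks named here kept their calls. Upstream of Pdk1 a peak at chr2:71866380-71867139 was lower, at 4.84 ± 0.91 CPM with lactate and Oxyrase, 8.82 ± 0.62 CPM with lactate and 7.48 ± 1.44 CPM with NaCl (SD, n = 3 each; -0.86 ± 0.14 against lactate, adjusted p = 7.4e-06, and -0.63 ± 0.14 against NaCl in edgeR). Near Ldha the peaks went both ways: chr7:46832203-46832588 was lower (-0.66 ± 0.13 against lactate) and chr7:46833311-46833598 higher (0.33 ± 0.10 against lactate and 0.58 ± 0.11 against NaCl). Both lay outside Ldha and within 1 kb of an end of another annotated gene, Gm5331. The call of that higher peak against lactate was lost without lactate 1 (adjusted p = 0.11) or Oxyrase 1 (adjusted p = 0.057 in edgeR). A peak inside Slc16a1 (chr3:104643842-104644242) was lower (-0.46 ± 0.11 against lactate), and a peak beyond the end of Mpc1 (chr17:8305686-8306253) was higher by 0.48 ± 0.10. Which gene such a peak serves was not tested.

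Across the 12 RNA libraries, some of the 10 genes ran together and others against each other. The strongest were Slc16a1 with Bsg (r = -0.90), Slc16a1 with Pdha1 (r = -0.87) and Pdhb with Pdk1 (r = -0.87), while Ldha with Ldhb had r = -0.82 and Ldha with Pdk1 r = 0.80. All points share the 4 groups and the scaling of each library, so the values are a description only. Among the 8638 genes whose log2 CPM averaged 3 or more, the 2 most like each gene over the 12 libraries were Tpi1 and Pkm for Slc16a3 (r = 0.94 and 0.93), both encoding glycolytic enzymes, Memo1 and Magt1 for Slc16a1 (0.98 and 0.98), Itga5 and Ehbp1l1 for Bsg (0.96 and 0.95), and Flii and Abcb9 for Ldha (0.95 and 0.95). For Ldhb they were Plbd2 and Nkg7 (0.95 and 0.94), for Mpc1 Lcmt1 and B2m (0.91 and 0.91), for Mpc2 Trmt112 and Bcl3 (0.88 and 0.87), for Pdha1 Srp54a and Ahcyl1 (0.99 and 0.99), for Pdhb Smg6 and Mtfr1l (0.94 and 0.90) and for Pdk1 Cracr2a and Plcg1 (0.98 and 0.96).

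In the GRCm38.p6 annotation the genes lie apart on 10 chromosomes: Slc16a1 at chr3:104638664-104658462, Slc16a3 at chr11:120948484-120959000, Bsg at chr10:79704358-79711979, Ldha at chr7:46842274-46855627, Ldhb at chr6:142490249-142507957, Mpc1 at chr17:8283787-8297667, Mpc2 at chr1:165461260-165481218, Pdha1 at chrX:160122219-160138430, Pdhb at chr14:8165991-8173303 and Pdk1 at chr2:71873215-71903858. The start peaks of Bsg, Mpc2 and Pdha1 also lay within 1 kb of an end of another annotated gene (Gm25794, Dcaf6 and Gm39547), so their values may belong to either.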

How the data were processed

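RNA was enriched for poly(A) and chromatin was cut with Tn5 in the presence of digitonin, per the labels' protocols. The RNA values are estimated counts per gene, as the authors deposited them. The deposit calls them adjusted counts, and no source used here states what was adjusted. The submitters' processing notes name RSEM 1.2.12, Bowtie2 2.2.0, Trimmomatic, BWA, Picard, MACS2, bedtools, edgeR 3.20.9 and mm10. The ATAC values are read counts in 75802 peaks called by the authors, deposited as whole counts. A whole number (tolerance 1e-09) made up 99.24% of the non-zero RNA values. Of 460 genes with a fractional value above 1, 448 were at 0 in every library of 1 replicate number. A correction between replicate numbers before deposit, which no source states, would leave such a trace and would narrow the spread within groups below its true size. The SEs and p-values of the RNA results would then be too small.

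Estimated counts were rounded, low genes were removed with filterByExpr (no peak was), and edgeR 4.0.16 (R 4.3.3) fitted each assay's 12 libraries together after TMM scaling, as a quasi-likelihood model with no replicate term. The SE is the log2 fold change over the square root of F. The coefficient of variation between libraries that edgeR calls biological was 5.05% in RNA and 9.70% in ATAC. Whether that spread is biological or technical is not known here. The scripts were tested on simulated data. Symbols were matched for 55141 of 55401 identifiers; gene positions, and promoters for 9 of the 10 genes, came from RefSeq tables of GRCm38.p6. The 10 genes and the lists were chosen with earlier results of these data known. Named besides the 10 genes were the 4 largest called changes of the wider list per comparison and each other PDK, PDP and chaperone gene measured. Of the HIF targets up to 3 that rose were named, and Hk2 and Car12, whose means were lower. Also named were the 2 genes most like each of the 10, the start peaks, and at most 2 other called peaks per gene and comparison. Alternatives used DESeq2 1.42.0, another scaling, no filter, a replicate block, only the 2 groups compared, a threshold of 0.01, other distances to peaks and leaving out each library. Figures and tables used Python 3.11.15. A genome sequence and GC content were not used here.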

Additional observations from a re-analysis of the deposited data

How the results depend on the processing

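For the 10 transcripts, 495 of 550 recomputed values kept both direction and side of the threshold, 21 changed sign without a call either way, 18 lost and 16 gained a call and 0 called values reversed. For the 31 peaks 1651 of 1860 kept both, 100 changed sign without a call, 73 lost and 32 gained a call, and 4 reversed, all with the trend on mean accessibility removed: the Mpc2 start peak at 0.22 (lactate against NaCl), 0.29 (lactate and Oxyrase against NaCl) and -0.19 (pyruvate against lactate), and the Pdhb start peak at 0.25 (lactate and Oxyrase against NaCl). All 7 calls of lactate and Oxyrase against lactate held in every alternative at 0.05. No scaling shifted the median of all features by over 0.05.

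No label says that equal numbers pair the samples. Same-numbered libraries of different groups had r of -0.21 to -0.08 in RNA, where a correction between replicate numbers would itself lower r so that these values cannot show whether the numbers pair, and -0.15 to 0.17 in ATAC. With the replicate block, 1 of the 10 genes was called for pyruvate against NaCl and 1 for pyruvate against lactate, Mpc2 being lost in both (adjusted p = 0.075 and 0.051 in edgeR); 671 genes were called for lactate against NaCl, 1 peak in all for pyruvate against NaCl, and 4 of the 31 peaks for lactate against NaCl. Without the filter, 1 of the 10 genes was called for pyruvate and 1 for lactate against NaCl, with 1724 genes for lactate. The lowest adjusted p of that fit was 0 in edgeR, so its p-values are not relied on. With only the 2 groups compared, lactate against NaCl gave 1 gene and 1 peak. DESeq2 gave 2 genes and 4 peaks for lactate against NaCl, where it called 1333 of all genes and 5774 of all peaks. With the trend removed, lactate against NaCl gave 1 of the 31 peaks, where 2.55% of all peaks were higher and 4.65% lower. At an adjusted p under 0.01, pyruvate against NaCl gave 1 of the 10 and 1105 genes, lactate 366 genes, 0 of the 31 peaks and 2058 peaks, pyruvate against lactate 1 of the 10, 1991 genes, 1 of the 31 and 3860 peaks, lactate and Oxyrase 10 of the 31 against NaCl, and 5 of the 31 and 12997 peaks against lactate. Peaks within 2.5 kb gave 11 and 6 calls for lactate and Oxyrase against NaCl and lactate; those within 50 kb gave 38 and 25, with 7 for lactate and 13 for pyruvate against lactate.

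Leaving out 1 library gave 1 to 1, 0 to 1, 5 to 7, 7 to 8 and 1 to 2 of the 10 genes called (pyruvate, lactate, lactate and Oxyrase against NaCl, then lactate and Oxyrase, and pyruvate, against lactate), 1281 to 1920, 451 to 1124, 6708 to 7033, 6545 to 6845 and 2547 to 2940 of all genes, 0 to 0, 0 to 7, 11 to 16, 6 to 11 and 1 to 5 of the 31 peaks, and 0 to 0, 684 to 11317, 25131 to 31281, 16200 to 19031 and 3597 to 8150 of all peaks. The causes were not tested.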
